A study of Mus musculus with 19 samples.

Results

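The 6 genes described here, Gng8, Plcb2, Itpr3, Trpc2, Ano1 and Ano2, carry the signal of a vomeronasal sensory neuron (VSN) from the pheromone receptor to a change in membrane voltage. They were chosen by name for that role and are 6 of the 35596 genes in the files. All 6 were measured well above the level of a few counts in every library. None was called by edgeR in a conditional knockout of Smad4, while DESeq2 called Ano1 in AP-2εCre/Smad4cKO organs. Against both kinds of control, Ano1 there had the largest difference between a knockout and its controls, at 0.750 times the control level.

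The vomeronasal organ (VNO) is a chemosensory organ of the nasal septum. Its apical VSNs use V1R receptors with the G protein subunit Gαi2, and its basal VSNs use V2R receptors with Gαo. Either receptor releases Gβγ subunits, which activate a phospholipase C of the β class. The phospholipase splits a membrane lipid into diacylglycerol, which opens the cation channel Trpc2, and inositol trisphosphate, which opens calcium stores through inositol trisphosphate receptors. The calcium that enters then opens the chloride channels anoctamin 1 and anoctamin 2, and the chloride that leaves the cell depolarizes it further.

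Messenger RNA was measured in 19 libraries of whole VNO from female mice at postnatal day 21, of which 18 could be placed in a group of 3 biological replicates. AP-2εCre, a knock-in at the gene of the transcription factor AP-2ε, recombines in immature basal VSNs, and OMPCre, in which Cre stands in for 1 copy of the olfactory marker protein gene Omp, recombines in mature apical and basal VSNs. Each line had Smad4cKO mice (AP-2εCre+/- or OMPCre+/- with Smad4 flox/flox), Cre heterozygotes (AP-2εCre+/- or OMPCre+/-) and Smad4 flox/flox controls without Cre, which the sample labels call wild type. The question for the members was whether loss of Smad4, which carries TGFβ and BMP signals to the nucleus, in either population of neurons moved their mRNA, against both kinds of control of a line at once.

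The libraries held 43385516 to 134042284 estimated counts. The labels name a type of VSN, but the organ was not sorted, so each library also holds RNA of gland, supporting and respiratory cells. The defining Gα subunits of apical and basal VSNs, Gnai2 and Gnao1, were at 366 and 197 CPM in the AP-2εCre controls (CPM, counts scaled to library size after 1 normalization of the 18 libraries). Smad4 itself was at 55.5 ± 18.8 CPM (SD, n = 3) in AP-2εCre/Smad4cKO and 59.4 ± 19.8 (SD, n = 6) in its controls, and the groups overlapped (two-sided exact permutation p = 0.821). In OMPCre/Smad4cKO it was at 59.6 ± 4.48 CPM and in controls at 75.8 ± 6.41, with all 3 knockout libraries below all 6 controls (exact permutation p = 0.0119, the smallest that 3 libraries against 6 can give). These counts cover the whole gene in an unsorted organ and do not single out the floxed exon, so they do not measure the loss of functional Smad4. The paper reports that most recombined basal VSNs of AP-2εCre/Smad4cKO lost this exon's RNA, and that they lost Smad4 protein. Library names had either a letter and a number (12 libraries) or the line and a number (6 libraries). Each line had all 3 genotypes in each form, and no label says what the forms stand for.

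Trpc2 has a neighbour that limits how its reads can be read. In the GENCODE vM21 annotation of GRCm38, Trpc2 (ENSMUSG00000100254.1) lies on chromosome 7 from 102083116 to 102096396 on the plus strand. It lies inside the gene Xntrpc (ENSMUSG00000070425.13), a readthrough from 102065713 to 102096864. The only annotated Trpc2 transcript, Trpc2-201, has 13 exons, 2874 bases and 2670 coding bases. It has 11 exons and 2803 bases in common with Xntrpc-202, a transcript annotated as a target of nonsense-mediated decay that held 99.8% of the Xntrpc counts. The coding transcript Xntrpc-201 was listed at 0 in 17 of the 18 libraries. Trpc2-201 has 71 bases that Xntrpc-202 lacks. Xntrpc-202 has 2044 bases that Trpc2-201 lacks, and Xntrpc-201 has 1432. Xndc1-202, of the overlapping gene Xndc1, has 71 bases in common with Trpc2-201. The bases around 1 junction that differs are shown, 15 on each side. Lower case marks the exon before the junction. Capitals mark the first bases of the exon that the 3 transcripts below have in common (102083861 to 102083875).
Trpc2-201: atggaccccctttcgCCACAGCCCAACTGG
Xntrpc-201: ccccttgtccccaagCCACAGCCCAACTGG
Xntrpc-202: ggctttgtcactatgCCACAGCCCAACTGG
The lower-case bases end at position 102083186 in Trpc2-201, 102083018 in Xntrpc-201 and 102082441 in Xntrpc-202. A read that lies wholly in the capitals or downstream of them in the common exons cannot be assigned by its letters, and salmon divides such reads by its model. Fold changes of Trpc2 are therefore given with that of the sum of Trpc2 and Xntrpc beside them.

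Gng8 (ENSMUSG00000063594.5; chromosome 7, 16891786 to 16895436, plus strand) encodes the G protein subunit Gγ8 and has the smallest coding sequence. Its frame of 210 bases, or 70 codons before the stop, is shown because most Gng8 counts fell on a transcript that the annotation does not class as coding. Lower case marks the first coding exon (16894944 to 16895027) and capitals the second (16895235 to 16895360).
Gng8: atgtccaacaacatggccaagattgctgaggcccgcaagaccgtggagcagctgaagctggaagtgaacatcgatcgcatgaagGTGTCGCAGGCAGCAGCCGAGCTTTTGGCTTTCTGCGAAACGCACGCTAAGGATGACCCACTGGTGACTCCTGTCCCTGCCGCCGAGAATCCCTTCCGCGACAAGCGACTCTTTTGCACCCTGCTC
The whole frame is also present in Gng8-204 and in Gng8-205. Gng8-205, annotated as a retained intron, held 74.4% ± 7.36 (SD, n = 18 libraries) of the Gng8 counts, Gng8-204 held 16.7% and Gng8-201 held 6.64%. A count of Gng8 is thus mostly a count of a transcript that holds the frame but carries a class other than coding.

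The other 4 members are Plcb2 (ENSMUSG00000040061.17; chromosome 2, 118707517 to 118728438, minus strand), Itpr3 (ENSMUSG00000042644.9; chromosome 17, 27057304 to 27122223, plus strand), Ano1 (ENSMUSG00000031075.18; chromosome 7, 144588549 to 144751974, minus strand) and Ano2 (ENSMUSG00000038115.16; chromosome 6, 125690419 to 126040126, plus strand).

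Levels between genes were compared per length, as TPM, which scales each transcript by its length and by library size, over the 12 control libraries of both lines. Gng8 was the most abundant member at 157 TPM, above 97.0% of the 19465 genes tested. Ano1 followed at 40.4 TPM, Trpc2 at 34.3, Ano2 at 27.9 and Itpr3 at 15.3, the last with a range of 4.99 to 26.6 that turns on a transcript of 350 bases. Plcb2 was lowest at 2.23 TPM and exceeded 31.6% of genes. The transduction genes thus spanned the range from abundant to scarce in the same organ.

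Within the 12 libraries, Gng8 exceeded Ano1 in 12 of 12 by 1.94 on the log2 scale, and Itpr3 exceeded Plcb2 in 12 of 12 by 2.68 (permutation over sign flips, adjusted p over the 5 neighbouring pairs = 0.00122 for each). Trpc2 exceeded Ano2 in 11 of 12 by 0.27 (adjusted permutation p = 0.00244) and Ano2 exceeded Itpr3 in 11 of 12 by 1.02 (adjusted permutation p = 0.00163). The order of Ano1 and Trpc2 was not settled. Ano1 was higher in 9 of 12 libraries by 0.30 on log2 TPM (adjusted permutation p = 0.0356), while on CPM per kilobase of transcript Trpc2 was higher in 9 of 12, with a log2 difference of -0.12 (permutation p = 0.475). On the same scale, on which the short transcript of Itpr3 weighs less, Ano2 exceeded Itpr3 by 1.24 and Itpr3 exceeded Plcb2 by 2.09, each in 12 of 12.

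**Figure D1:**
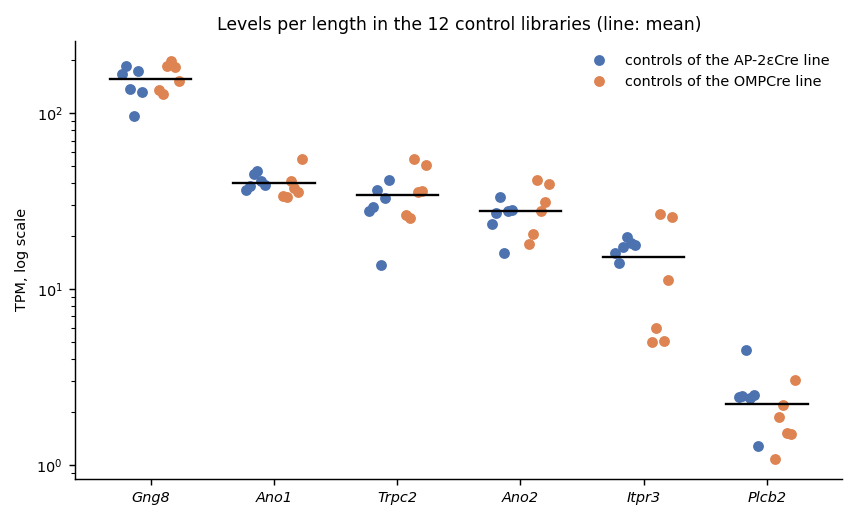
TPM of the 6 members in each control library on a log axis, with 1 point per library and the mean over the 12 libraries. Gng8 sits highest (mean 157 TPM) and Plcb2 lowest (mean 2.23 TPM), while the points of Ano1, Trpc2 and Ano2 overlap.

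Plcb2 had 328 to 1309 estimated counts per library, the fewest of the members, and Ano1 had the most, 5617 to 16318. Over the 18 libraries the highest library was 1.52 times the lowest for Itpr3, 1.60 times for Ano2, 1.87 times for Plcb2, 1.93 times for Ano1, 2.38 times for Gng8 and 2.76 times for Trpc2. By this ratio Trpc2 and Gng8 had the widest ranges, and that of Trpc2 rests on 1 library at 50.1 CPM. As a percent of the mean, the SD was 26.5% for Gng8, 22.1% for Plcb2 and 19.3% for Trpc2.

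**Figure D2:**
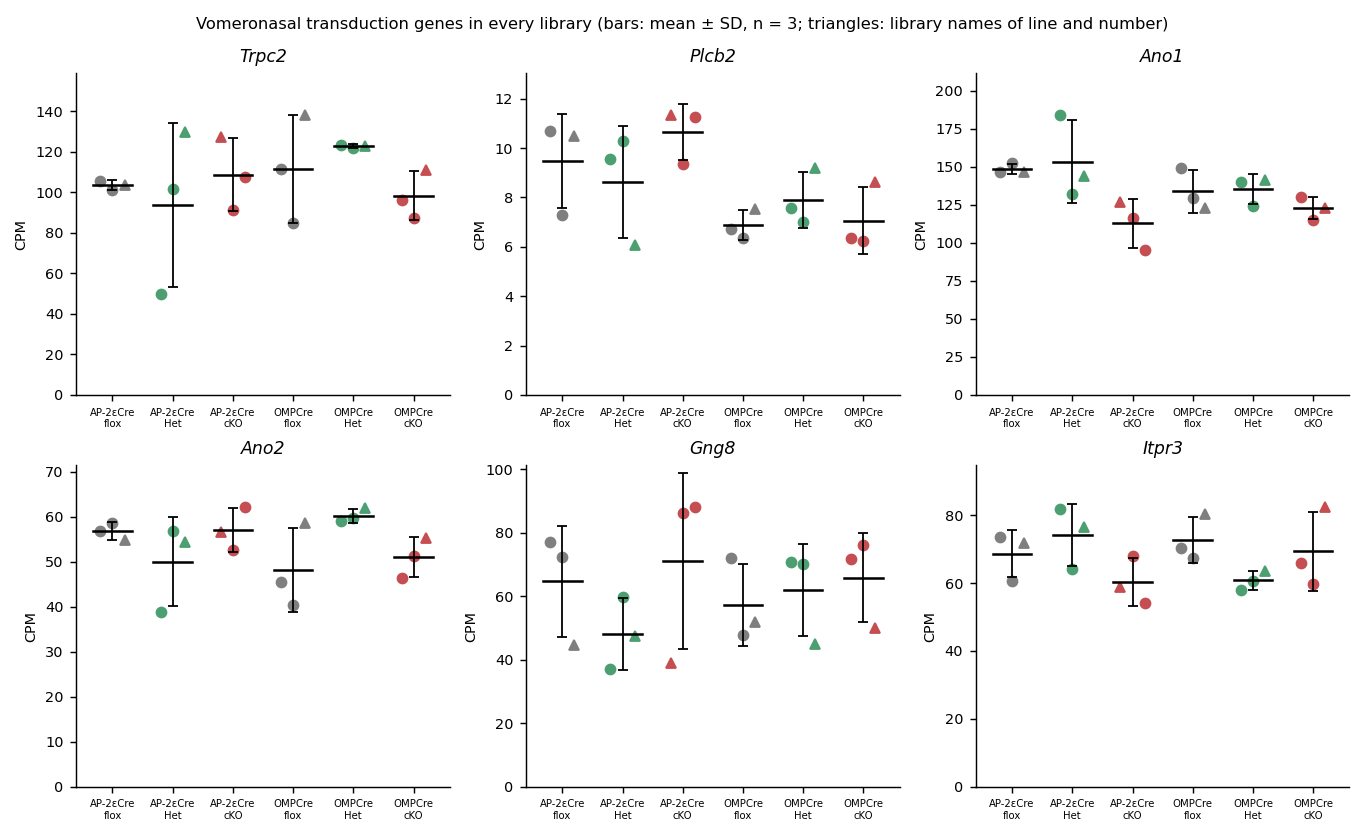
Normalized CPM of each member in the 18 libraries, with 3 points for each of the 6 groups, a line at the mean and a bar of 1 SD either way. Triangles mark library names with a line and a number, and the lowest Trpc2 and Ano2 points (50.1 and 38.8 CPM) belong to 1 AP-2εCre heterozygote.

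In AP-2εCre/Smad4cKO against its controls, edgeR called 7 of 18495 genes, or 0.0378%, and 0 of the 6 members. The groups did not overlap in either direction for 4.94% of genes, and among the members for Ano1 alone. The median log2 fold change was 0.12 over the members and 0.00297 over all genes tested. By DESeq2, which called 309 genes, Ano1 was the 1 member called.

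Ano1, the calcium-activated chloride channel that carries most of the current in VSNs and is also made by glands, was at 127, 117 and 95.1 CPM in the 3 AP-2εCre/Smad4cKO libraries. In the 6 controls it ranged from 132 to 184 CPM with a median of 147. All 3 knockout libraries lay below all 6 controls. The library left out of the groups, which has the genotype label of a knockout and the title of a heterozygote, was at 144 CPM of Ano1, inside the control range, so the groups would overlap if it were a knockout. The log2 fold change was -0.41 ± 0.12 (SE; 95% interval -0.68 to -0.15), with p = 0.00598 before and 0.317 after Benjamini-Hochberg adjustment in edgeR's quasi-likelihood test, and an exact permutation p of 0.0119. DESeq2 gave -0.42 with an adjusted p of 0.0451, so the call depends on the tool. In bulk RNA, fewer cells that express a gene and less of its RNA per cell cannot be told apart.

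The marker lists of other cells also differed between these groups. The 6 gland genes Obp2a, Lcn3, Lcn4, Muc5b, Aqp5 and Bpifa1 all had estimates below 0 in AP-2εCre/Smad4cKO, none was called, and their summed level was 48582 to 81637 CPM against 81681 to 171130 in the controls (exact permutation p = 0.0357). The defining gland genes were at 0 in no library: Muc5b was at 158 to 473 CPM against 190 to 1197, and Aqp5 at 104 to 106 against 97.6 to 138. All 5 sustentacular genes also had estimates below 0, with none called and sums of 1136 to 1665 CPM against 1465 to 3475, which overlap. The same held for the 5 respiratory and ciliated genes, at 344 to 590 CPM against 518 to 794, and 6 of 7 basal VSN markers were below 0 (exact permutation p = 0.488 for their sum). The summed apical VSN markers were higher, at 1038 to 1073 CPM against 800 to 956 (exact permutation p = 0.0119), and those of mature olfactory neurons at 865 to 1012 CPM against 592 to 829 (exact permutation p = 0.0357). The 6 markers of immature neurons all had estimates above 0, with sums that overlap (exact permutation p = 0.0476). What part these differences had in the Ano1 values was not tested.

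Split by the form of the library name, Ano1 was lower in the AP-2εCre/Smad4cKO libraries in both forms, by a log2 ratio of -0.54 among names with a letter (2 against 4 libraries) and -0.20 among names with the line (1 against 2). Each knockout library lay below every control of its form. Over 20 other ways of running the comparison the log2 fold change stayed between -0.51 and -0.30, with adjusted p from 0.0451 to 0.734.

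Gng8 had a wide spread between libraries. AP-2εCre/Smad4cKO libraries were at 39.1, 86.1 and 88.0 CPM, and the 6 controls ranged from 37.0 to 77.0 with a median of 53.6. Both the highest value and 1 of the lowest were knockout libraries. The log2 fold change was 0.34 ± 0.28 (SE; adjusted p = 0.758, edgeR), and it took opposite signs in the forms of the library name, at 0.50 among names with a letter and -0.24 among names with the line. Against heterozygotes alone it was 0.57, which exceeds the -0.43 of Ano1 in size, with an adjusted p of 0.642 in edgeR. Over all 18 libraries Gng8 was at 69.0 ± 14.6 CPM in the 12 libraries named with a letter and 46.4 ± 4.54 in the 6 named with the line, and the reason was not tested.

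Plcb2, which encodes phospholipase C β2, was at 11.3, 9.35 and 11.3 CPM in AP-2εCre/Smad4cKO and at 6.05 to 10.7 with a median of 9.91 in the controls. The log2 fold change of 0.24 ± 0.18 (SE) did not pass (adjusted p = 0.732, edgeR). The ranges overlapped, with 2 knockout libraries above every control. Plcb1, Plcb3 and Plcb4, also of the β class, were together far more abundant than Plcb2. Their sum was 196 to 225 CPM in the knockout against 216 to 307 in the controls (exact permutation p = 0.0595).

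Itpr3, the type 3 inositol trisphosphate receptor, was at 59.0, 68.1 and 54.2 CPM in AP-2εCre/Smad4cKO. The 6 controls ranged from 60.6 to 81.9 CPM with a median of 72.6. Only the library at 68.1 lay inside the control range. The log2 fold change was -0.24 ± 0.11 (SE; 95% interval -0.49 to 0.01; adjusted p = 0.516, edgeR; exact permutation p = 0.0952), so it missed the threshold by either test.

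Trpc2, the diacylglycerol-gated cation channel, was at 127, 91.4 and 107 CPM in AP-2εCre/Smad4cKO, and at 50.1 to 130 with a median of 103 in the controls. The knockout values all fell inside the control range, with a log2 fold change of 0.14 ± 0.23 (SE; adjusted p = 0.899, edgeR) and 0.08 for the sum with Xntrpc. The sum of Trpc2 and Xntrpc was 158 ± 24.0 CPM (SD, n = 3) in the knockout, 155 ± 7.40 in flox controls and 144 ± 54.7 in heterozygotes (exact permutation p = 0.774, 3 against 6). Trpc2 made up 67.4% ± 2.60 of this sum over the 18 libraries, between 60.6% and 71.0%, and the share overlapped between groups in both lines.

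**Figure D3:**
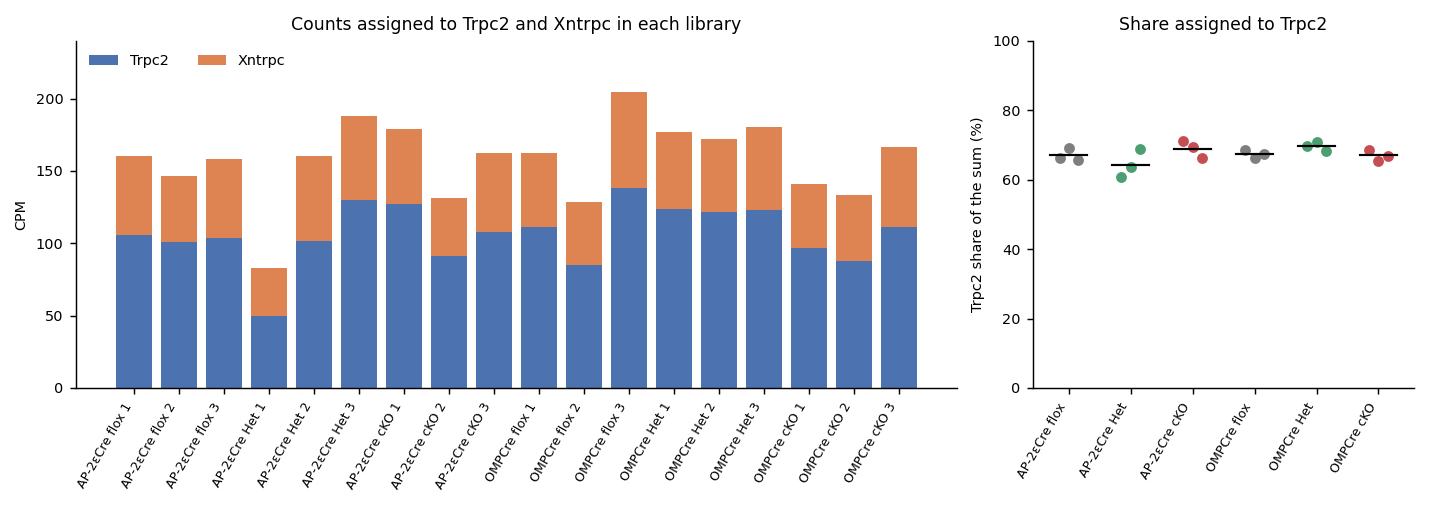
Left, stacked bars of the normalized CPM of Trpc2 and Xntrpc in each of the 18 libraries. Right, the percent of their sum that fell on Trpc2, with 1 point per library and a line at each group's mean: it lies between 60.6% and 71.0% throughout, while the bar of AP-2εCre heterozygote replicate 1 is the shortest (50.1 CPM of Trpc2).

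Ano2, the other anoctamin of the pathway, was at 56.5, 52.5 and 62.1 CPM in AP-2εCre/Smad4cKO and at 38.8 to 58.7 CPM in the controls. Its log2 fold change was 0.10 ± 0.12 (SE; adjusted p = 0.859, edgeR). The estimate of Ano2 was thus above 0 and that of Ano1 below 0, and the difference between the channels was not tested.

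In OMPCre/Smad4cKO against its controls, edgeR called 0 of 18623 genes (0.0%), with 735 at an unadjusted p under 0.05, and DESeq2 called 42 genes, none of them a member. The groups did not overlap for 2.33% of all genes and for 0 of the 6 members. Adjusted p-values were 1.0 for every member in edgeR's quasi-likelihood test. The median log2 fold change of the members was -0.08, against -0.00463 over all genes.

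Against both kinds of control together, Trpc2 had the largest difference in this line. It was at 96.4, 87.5 and 111 CPM in OMPCre/Smad4cKO, and at 85.1 to 138 CPM in the 6 controls. The log2 fold change was -0.25 ± 0.14 (SE; 95% interval -0.57 to 0.06; exact permutation p = 0.19), and that of the sum of Trpc2 and Xntrpc was -0.22. The ratio was alike in both forms of the library name, at -0.26 and -0.23. All 3 knockout libraries nevertheless lay within the control range.

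Ano1 was at 130, 115 and 123 CPM in OMPCre/Smad4cKO and at 123 to 149 in controls (log2 fold change -0.13 ± 0.08, SE; 95% interval -0.32 to 0.06). The remaining log2 fold changes were 0.15 for Gng8, -0.09 for Ano2, -0.07 for Plcb2 and 0.05 for Itpr3. These 4 members and Ano1 all overlapped between the groups. Against heterozygotes alone the log2 fold changes were -0.32 for Trpc2, -0.23 for Ano2 and 0.19 for Itpr3, with no adjusted p under 0.852 in edgeR. In this line the gland and sustentacular sums overlapped between the groups, and the apical marker sum was 987 to 1040 CPM against 855 to 954 (exact permutation p = 0.0119).

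A term for unequal knockout effects in the lines, fitted to the 18 libraries, gave the difference between the lines, and edgeR called 1 of 19465 genes (0.00514%) and 0 members. The difference, AP-2εCre minus OMPCre, was -0.29 ± 0.15 (SE; 95% interval -0.62 to 0.04) for Ano1 and -0.30 ± 0.16 (SE; -0.64 to 0.04) for Itpr3, each at an adjusted p of 0.998. For Trpc2 it was 0.39 ± 0.31 (SE; -0.26 to 1.04), and 0.30 for the sum with Xntrpc. The intervals all include 0. With the replicate block the Ano1 difference was -0.29 ± 0.13 (SE; unadjusted p = 0.041, adjusted p = 0.923 by the Benjamini-Hochberg method in the quasi-likelihood fit of edgeR), so after adjustment the lower Ano1 of AP-2εCre/Smad4cKO was not shown to be particular to that line.

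**Figure D4:**
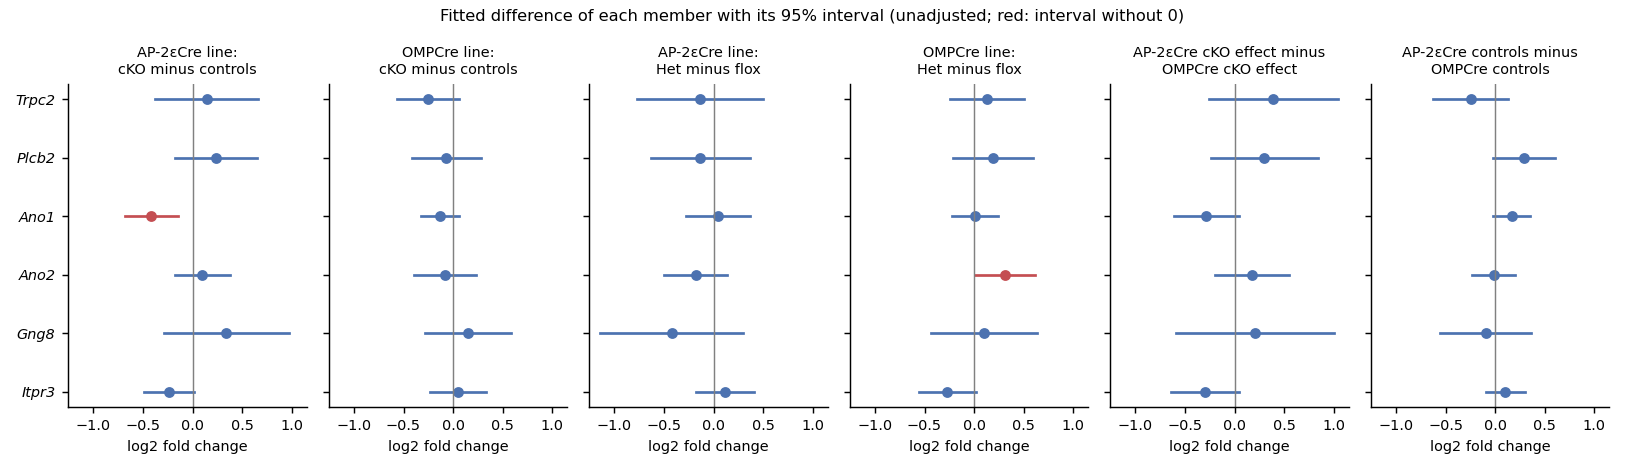
Log2 fold change of each member with its 95% interval from edgeR, 1 panel for each of the 6 comparisons, with intervals that leave out 0 in red. Before adjustment 2 intervals leave out 0, Ano1 in AP-2εCre/Smad4cKO (-0.41) and Ano2 in OMPCre heterozygotes (0.31).

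Cre heterozygotes were then set against flox controls, the libraries that also serve as controls of the knockouts. In the AP-2εCre line, edgeR called 9 of 18495 genes (0.0487%), and 9.88% of genes did not overlap between the groups. All 6 members overlapped, and 0 were called. Gng8 had the largest log2 difference at -0.42, and Trpc2 was at -0.14 (-0.10 for the sum with Xntrpc), or 0.15 without heterozygote replicate 1, which held 50.1 CPM of Trpc2. The direction of Trpc2 in this comparison therefore rests on that library. All 7 basal VSN markers had estimates below 0 in these heterozygotes, with none called, and summed to 341 to 570 CPM against 602 to 717, and their part in the members' values was not tested.

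In the OMPCre line, edgeR called 14 of 18623 genes (0.0752%) and 0 members, with 11.4% of genes not overlapping between the groups. Ano2 was at 58.9, 59.7 and 61.9 CPM in heterozygotes and at 45.6, 40.4 and 58.6 in flox controls. The log2 fold change was 0.31 ± 0.13 (SE; 95% interval 0.00457 to 0.61; p = 0.0473 before and adjusted p = 0.833 after Benjamini-Hochberg adjustment in edgeR; exact permutation p = 0.1), and the groups were apart by less than 1 CPM. Itpr3 was at 58.0, 60.6 and 63.7 CPM in heterozygotes and at 70.4, 67.3 and 80.4 in flox controls, a log2 fold change of -0.27 ± 0.13 (SE; adjusted p = 0.833, edgeR). These were the 2 members whose groups did not overlap, and their exact permutation p of 0.1 is the smallest that 3 against 3 can give. In the same libraries all 6 main olfactory markers had estimates above 0 (summed 1286 to 1372 CPM against 966 to 1217) and all 5 respiratory and ciliated markers had estimates below 0 (377 to 501 CPM against 622 to 912), with none called, and their part was not tested. Omp, of which the OMPCre allele replaces 1 copy, was at 237 CPM in these heterozygotes against 397 in the flox controls.

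Controls of the lines also differed little in the members. Between the 6 controls of each line edgeR called 39 of 19465 genes (0.2%) and 0 members, and 0.488% of genes did not overlap. Plcb2 had the largest difference, 9.06 ± 1.93 CPM in AP-2εCre controls and 7.39 ± 0.99 in OMPCre controls (SD, n = 6; log2 difference 0.29 ± 0.15, SE; adjusted p = 0.693, edgeR). For Trpc2 the log2 difference was -0.25 (-0.20 for the sum with Xntrpc), and for Ano1 it was 0.17 (exact permutation p = 0.0563). All 6 members overlapped between the lines.

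The transcripts on which the members' counts fell were compared next. Ano1-203 held 90.1% of Ano1 counts, Itpr3-201 98.6% of Itpr3 counts and Plcb2-202 76.4% of Plcb2 counts. Ano2 was divided, with 41.9% of its counts on Ano2-206 and 31.7% on Ano2-202, both annotated as targets of nonsense-mediated decay, and 9.98% on the coding Ano2-204. Per length the order differs: Ano2-205 had the largest share of Ano2 TPM, at 37.5%. Ano1-208 was listed at 0 in all 18 libraries.

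Itpr3-202, a processed transcript of 350 bases, changes how Itpr3 reads on the TPM scale. It held 1.42% of Itpr3 counts but 45.4% of its TPM on average, and it was listed at 0 in 5 OMPCre libraries. Itpr3 TPM accordingly ran from 4.99 to 26.6 in the OMPCre line while its CPM ran from 58.0 to 82.3. The CPM of Itpr3 is therefore used for all comparisons between groups.

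**Figure D5:**
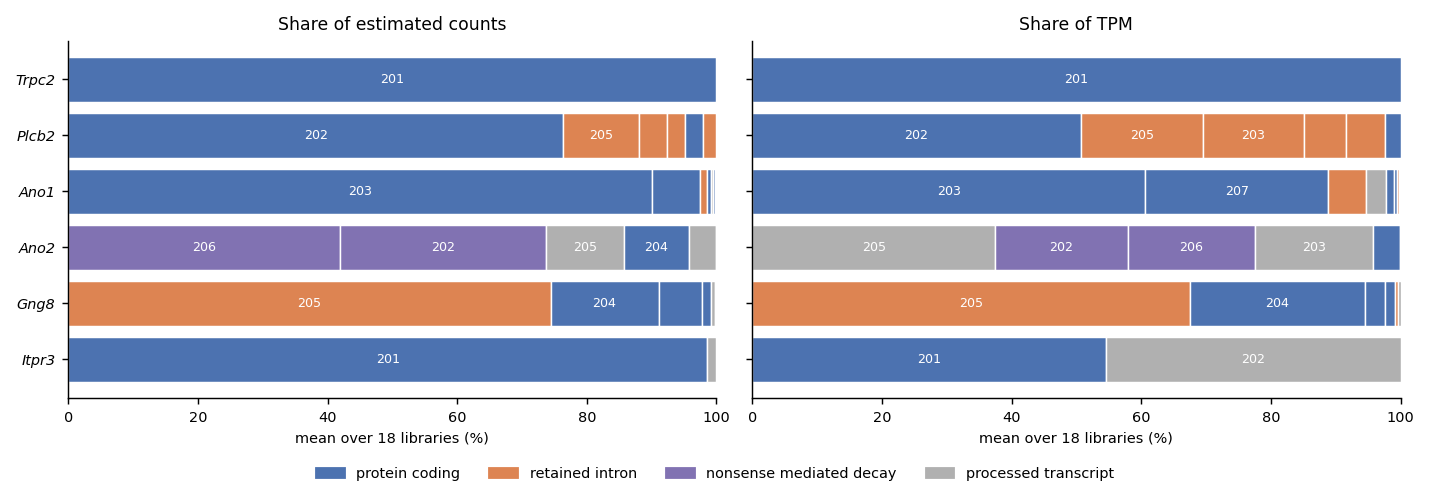
Percent of each member's estimated counts (left) and TPM (right) on its annotated transcripts, as the mean over the 18 libraries, coloured by the annotated class and marked with the transcript's number. Itpr3-201 holds 98.6% of counts but a smaller part of TPM, Gng8 is mostly the retained-intron transcript, and Ano2 is divided among several.

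At the level of transcripts, edgeR called 0 of 58883 transcripts (0.0%) in AP-2εCre/Smad4cKO, with 2850 at an unadjusted p under 0.05 and 624 called by DESeq2. It called 2 of 59367 (0.00337%) in OMPCre/Smad4cKO, with no transcript of a member among them. Ano1-203 was at 85.1 to 118 CPM in AP-2εCre/Smad4cKO and at 118 to 166 in the controls, again without overlap (log2 fold change -0.41 ± 0.13, SE; adjusted p = 1.0, edgeR). Ano1-207 had a log2 fold change of -0.52 ± 0.28 (SE) with overlapping groups. Shares of transcripts within their gene overlapped between the groups in all 26 tests, and the lowest adjusted p was 0.942 in exact permutation tests.

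The other 47 genes of the pathway, in 7 lists of G protein subunits, phospholipases, inositol trisphosphate receptors, TRP channels with genes of store entry, anoctamins, chloride and potassium channels and carriers, and genes of calcium feedback, were counted in the same fits. In AP-2εCre/Smad4cKO, 44 were tested, 22 were higher and 22 lower, and 0 were called by edgeR, with 3 higher and 4 lower at an unadjusted p under 0.05, beside 1892 of the 18495 genes tested. In OMPCre/Smad4cKO, 27 were higher and 17 lower, and 0 were called, with 1 in each direction at an unadjusted p under 0.05, beside 735 of 18623. By list, the estimates in AP-2εCre/Smad4cKO were above 0 for 8 and below 0 for 3 of the 11 G protein subunits, 1 and 2 of the 3 phospholipases, 1 and 1 of the 2 inositol trisphosphate receptors, 3 and 5 of the 8 TRP channel and store entry genes tested, 4 and 3 of the 7 anoctamins tested, 0 and 5 of the 5 chloride and potassium genes and 5 and 3 of the 8 genes of calcium feedback. The medians over these genes were -0.000347 and 0.03 on the log2 scale.

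Of these, 4 of the 44 did not overlap between AP-2εCre/Smad4cKO and its controls, beside 4.94% of all genes. Gnai2, the Gα subunit of apical VSNs, was at 444 ± 29.6 CPM (SD, n = 3) against 366 ± 34.4 (SD, n = 6), a log2 fold change of 0.28. Gng2, a Gγ subunit, was at 339 ± 16.9 CPM against 283 ± 35.4, a log2 fold change of 0.26. Both were above every control, and neither passed (adjusted p = 0.367 and 0.455, edgeR). Slc12a2, the chloride importer that loads neurons with chloride and also serves secretion, was at 384 ± 39.7 CPM against 493 ± 40.1 and below every control (log2 fold change -0.35 ± 0.10, SE; adjusted p = 0.317, edgeR; 0.0199, DESeq2). Enkur was at 29.5 ± 5.31 CPM against 37.7 ± 1.17 (adjusted p = 0.324, edgeR). The chloride and potassium list, of whose sum Slc12a2 makes up most, was at 477 to 571 CPM against 574 to 678 (exact permutation p = 0.0119). The lower gland sum and the respiratory and ciliated sum (344 to 590 CPM against 518 to 794, exact permutation p = 0.0595) stand beside these levels of Slc12a2 and Enkur, and their part was not tested. In OMPCre/Smad4cKO 1 of these genes did not overlap, beside 2.33% of all genes. This was Kcnj3, a potassium channel subunit, at 0.881 ± 0.067 CPM against 1.41 ± 0.267.

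Plcb2, Itpr3 and Trpm5 also serve solitary chemosensory cells of the nose. Markers of those cells were scarce here: Trpm5 was at 1.24 to 4.20 CPM, Gnat3 at 0.696 to 4.02 and Pou2f3 at 0.644 to 5.66 over the 18 libraries, and the 8 markers summed to 6.72 to 15.1 CPM. Plcb2 was scarce as well, at 6.05 to 11.3 CPM in the same libraries, and what part of it came from those cells was not tested. Genes listed for main olfactory neurons were not scarce: the channel subunits Cnga2 and Cngb1 were at 7.16 to 29.0 and 37.0 to 69.1 CPM, and the 6 genes of that list summed to 815 to 1730 CPM. Cnga2 and Cngb1 averaged 19.4 and 57.6 CPM beside a mean sum of 1240 CPM. The sum thus rests mostly on the other genes of the list, Cnga4, Gnal, Adcy3 and Gfy. The cells that their RNA came from were not measured.

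Across the 18 libraries, Trpc2 and Ano2 varied together (Pearson's r = 0.752, permutation p = 0.00059, adjusted over the 15 pairs of members 0.00885; Spearman's rho = 0.556, permutation p = 0.0177, adjusted 0.266). Without the 2 libraries farthest from the median of Trpc2, r was 0.584. Within lines r was 0.867 and 0.793, and within the forms of the library name it was 0.742 and 0.378. The next pair, Ano1 and Gng8, had r = -0.475 (adjusted permutation p = 0.196). Within the 12 libraries named with a letter, r was also 0.741 for Trpc2 and Gng8, 0.732 for Ano2 and Gng8, 0.728 for Ano1 and Itpr3 and -0.717 for Ano2 and Itpr3. These values within a form are a description, with no test.

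Among 15804 other genes, those with the pattern most like each member over the 18 libraries were found by the correlation of log2 CPM, and as the highest of many they are a description. For Trpc2 they were Impdh1 (r = 0.931) and Ppp2r2c (0.912), and for Ano2 they were Cngb1 (0.930) and Spock1 (0.899). Gng8 was nearest to H2afy (0.948) and Cartpt (0.925), Ano1 to Slitrk6 (0.888) and Slc26a2 (0.871), Plcb2 to Ap1ar (0.900) and Mllt3 (0.815), and Itpr3 to Itgb4 (0.867) and Clip1 (0.777). The highest values for Itpr3 and Plcb2 were lower than that for Gng8.

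The bases upstream of the members were searched for CAGAC, the core motif that Smad proteins bind, on both strands, in the 250 bases before each start in RefSeq on GRCm38.p6. It was found in 42.2% of 32851 promoters. It was not in the windows of Trpc2, Plcb2 and Ano1, and it was in those of Gng8 and Itpr3 and in 2 of the 3 windows of Ano2. A match to 5 letters is a description of the sequence and not a site.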

How the data were processed

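Polyadenylated RNA of 19 whole VNOs was made into stranded libraries and sequenced as single reads. Per the labels and the file headers, the authors quantified transcripts with salmon 0.14.0 against mouse transcripts (mm10/GRCm38), and the deposited values are estimated counts, not normalized, and TPM, scaled by effective length and library. Strand was kept in the library kit. The authors' DESeq2 results (1.22.2) were not used.

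Estimated counts were summed over GENCODE vM21 genes (116072 of 116248 transcripts matched, and the other 176 held at most 0.032% of counts) and rounded. The test was edgeR 4.0.16 quasi-likelihood (TMM, filterByExpr, Benjamini-Hochberg, calls at adjusted p under 0.05) in R 4.3.3. It was fitted over the 9 libraries of a line for the knockout and heterozygote comparisons and over 18 for the interaction and the comparison of lines. The main alternative was DESeq2 1.42.0. All tests are two-sided. Single values had exact permutation tests over libraries, with smallest p-values of 0.012 (3 against 6) and 0.1 (3 against 3). Correlations used log2(CPM + 1). The fits were tested on simulated data.

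The members and the gene lists were chosen with earlier results of these data known. The named genes are the 6 members, pathway genes that were called or did not overlap, and the 2 genes most like each member. 1 library, titled as a heterozygote and labelled with the genotype of a knockout, was left out of all comparisons. Libraries were also split by the form of their name, which no label explains, as a possible batch.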

Additional observations from a re-analysis of the deposited data

Results flagged for a closer look

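Among the 12 sets of 6 controls tested (6 members in 2 lines), 2 held a library far from the rest by Dixon's ratio, and chance flags about 1 in 20 sets. Both were the same library, AP-2εCre heterozygote replicate 1. Its Trpc2 was at 50.1 CPM, with the other 5 controls at 101 to 130 (ratio 0.642), and its Ano2 was at 38.8 CPM, with the others at 54.4 to 58.7 (ratio 0.784), both past Dixon's critical value for 6 samples. In the same library Ano1 (184 CPM) and Itpr3 (81.9 CPM) were the highest and Gng8 (37.0 CPM) the lowest of the AP-2εCre controls. Its summed sustentacular markers, at 3475 CPM, were the highest of those controls, and its summed markers of mature olfactory neurons, at 592 CPM, the lowest. Its summed basal VSN markers, at 341 CPM, were below the 556 to 717 of the other AP-2εCre controls, and its summed main olfactory markers, at 815 CPM, were also the lowest. The part of these markers in the values of Trpc2 and Ano2 was not tested. Without this library the log2 fold change of Ano1 in AP-2εCre/Smad4cKO was -0.35 in edgeR, against -0.41 with it.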

How the results depend on the processing

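Depth limits Plcb2 most, at 328 counts in the lowest library, and the spread between libraries limits every member. Of 1345 alternatives over 73 results, 1299 were alike to the main result. For the 11 results that are counts, alike means an equal or near count, and for the others the same direction and side of the threshold. The main fits called 0 members, so keeping the side of the threshold says little about the members' fold changes. By DESeq2, 1 member (Ano1) was called in AP-2εCre/Smad4cKO, where edgeR called 0. With deviations from group means in place of levels, Pearson's r passed for 2 pairs of members in place of 1. The added pair was Ano1 and Ano2 (r = -0.662, adjusted permutation p = 0.0218). Its Spearman's rho of -0.614 did not pass (adjusted permutation p = 0.0607). Without the 2 farthest libraries r was -0.491, and within the AP-2εCre and OMPCre lines it was -0.849 and -0.365. Ano1 over Trpc2 turned to -0.12 per kilobase and was 0.24 in flox controls alone, where it missed the threshold. In OMPCre/Smad4cKO, flox controls alone gave log2 fold changes of 0.033 for Plcb2, 0.080 for Ano2 and -0.074 for Itpr3, where heterozygotes alone gave -0.16, -0.23 and 0.19, and length-scaled TPM gave 0.00624 for Ano2 and -0.17 for Itpr3. In OMPCre heterozygotes length-scaled TPM gave 0.11 for Itpr3. Apart from heterozygotes alone, these signs are opposite to the main ones, and the cause was not tested, apart from the transcript Itpr3-202 given above.

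Leaving out 1 library at a time crossed 0 for the following log2 fold changes, none of them called. In OMPCre/Smad4cKO, Plcb2 ran from -0.24 to 0.017 and Itpr3 from -0.089 to 0.15, and among transcripts Plcb2-202 from -0.11 to 0.061, Ano1-207 from -0.21 to 0.14 and Itpr3-201 from -0.064 to 0.15. In AP-2εCre heterozygotes, Trpc2 ran from -0.45 to 0.15, Plcb2 from -0.30 to 0.064 and Ano1 from -0.11 to 0.14. In OMPCre heterozygotes, Trpc2 ran from -0.037 to 0.33, Ano1 from -0.040 to 0.10 and Gng8 from -0.016 to 0.31. Between lines, Ano2 ran from -0.071 to 0.066 and Gng8 from -0.19 to 0.00603, and Xntrpc-202 in AP-2εCre/Smad4cKO from -0.14 to 0.091.

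Calls over all genes were few and moved with the fit. In AP-2εCre/Smad4cKO they were 7 by edgeR, 309 by DESeq2, 24 against flox controls alone, 16 in 1 fit of 18 libraries, 4 on length-scaled TPM and 2 with the form of the library name. In OMPCre/Smad4cKO they were 0, 42 by DESeq2, 15 in 1 fit of 18 libraries and 11 against heterozygotes alone. DESeq2 called 122 genes in place of 9 and 155 in place of 14 for the heterozygotes, 50 in place of 1 for the interaction and 202 in place of 39 between lines. Leaving out 1 library, the calls ran from 2 to 8 and from 0 to 2 for the knockouts, from 3 to 21 and from 6 to 19 for the heterozygotes, from 0 to 5 for the interaction and from 22 to 53 between lines. DESeq2 called 280 transcripts in place of 2 in OMPCre/Smad4cKO. Replicate numbers are common to the groups. Libraries of the same number had correlated deviations of -0.308 to 0.192 (mean -0.0826) in the AP-2εCre line. In the OMPCre line these were all above 0, from 0.0218 to 0.523 (mean 0.238, against -0.116 for other numbers), and number 3 is there also the library named with the line. Since not every pair was over 0.1 and no label says what a number marks, the numbers were not taken as pairs, and in neither line did every library correlate best with its own number. With the replicate block the calls were 2, 0, 3, 7, 0 and 30 in place of 7, 0, 9, 14, 1 and 39, and 0 members were called.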

Other observations

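Per length, some G protein partners of the members were as abundant as Gng8 or more in the 12 control libraries. The Gα subunits Gnai2 of apical VSNs and Gnao1 of basal VSNs were at 291 and 362 TPM, and the Gγ subunits Gng2 and Gng13 at 158 and 136 TPM, near the 157 TPM of Gng8. These are levels over the whole organ, and the share of each cell type in them was not measured.

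The library left out of the comparisons, titled as an AP-2εCre heterozygote and labelled with the genotype of a knockout, held 115 CPM of Trpc2, 8.47 of Plcb2, 144 of Ano1, 57.1 of Ano2, 45.5 of Gng8 and 78.2 of Itpr3, on a normalization that includes it. In the same normalization, the 3 AP-2εCre heterozygotes ranged from 132 to 184 CPM for Ano1 and from 50.1 to 130 for Trpc2, and the 3 AP-2εCre/Smad4cKO libraries from 95.2 to 127 and from 91.5 to 127. For Plcb2 these ranges were 6.06 to 10.275 and 9.35 to 11.3, for Ano2 38.8 to 57.0 and 52.6 to 62.2, for Gng8 37.1 to 59.8 and 39.1 to 88.1, and for Itpr3 64.1 to 81.9 and 54.2 to 68.1. Ano1, Itpr3 and Plcb2 of this library lay inside the heterozygote range and outside the knockout range, Ano2 lay outside the heterozygote range and inside that of the knockouts, and Trpc2 and Gng8 lay inside both. Omp was at 413 CPM, against 293 to 446 and 449 to 550, and Tfap2e, the gene that carries the Cre knock-in, at 6.83 CPM, against 5.44 to 8.89 and 10.0 to 12.48. The Ano1 values of the knockouts would overlap those of the controls if this library were counted with them. No group was assigned to the library from these values.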
